A study of Homo sapiens with 12 samples.

Results

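The 32 genes described here encode the enzymes that build cholesterol and fatty acids from acetyl-CoA, together with the proteins that set the rate of that synthesis. They were read in HK-2 cells, a line of human renal proximal tubule epithelium immortalised with papillomavirus genes, as part of a search for expression signatures of kidney toxicants. The genes were taken by symbol, and each was represented by the probe set that carries its symbol alone and has the highest mean over the 12 arrays. Such a probe set was found for 29 of the 32 genes, and 28 of these were tested. The array as a whole held 19775 genes with a probe set of this kind, of which 10683 were tested, a gene being tested if its log2 signal exceeded 4 on at least 3 of the 12 arrays. FADS2, a fatty acid desaturase, did not pass, its highest signal on the probe set chosen being 3.12. The probe sets of CYP51A1 and FADS1 carry an additional symbol (LRRD1 and MIR1908, respectively), and these genes, like FDFT1, were not analysed here.

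The 4 groups were vehicle-treated (control) and CdCl-treated cells, each harvested after 12 h and after 48 h, with 3 arrays a group that are labelled as biological replicates. The labels do not give the dose of CdCl. All wells were near confluence at treatment and held a defined medium with glucose, insulin, hydrocortisone, epidermal growth factor, transferrin and selenite. Serum is not among the listed components. Whether the replicates were grown as separate cultures is not stated, so p-values measure the spread between these arrays. All values below are log2 signals, a difference of 1 being 2-fold. Signals are compared only within a probe set, never between genes.

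Cholesterol is made by condensing acetyl-CoA to mevalonate, turning mevalonate into isoprenoid units, joining these to squalene, and closing and trimming the sterol ring. Fatty acids are made from the same acetyl-CoA, which ATP citrate lyase supplies. Both branches are driven by the SREBP transcription factors, encoded by SREBF1 and SREBF2, which are held in the endoplasmic reticulum by the escort protein SCAP and its retention partners INSIG1 and INSIG2 as long as sterols are plentiful. When sterols run low, SCAP carries SREBP to the Golgi, where proteases free the part that enters the nucleus and binds sterol regulatory elements in the promoters of these genes, usually beside CCAAT boxes bound by NF-Y. INSIG1 and STARD4, a cytosolic carrier of cholesterol, are themselves textbook targets of SREBP.

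Promoter sequences were taken from RefSeq on GRCh38.p14, where 28 of the 32 genes had at least 1 window running from 250 bases before to 50 bases after the gene's start, 38 windows in all. ACAT2, FASN, SQLE and FDFT1 had none. These 28 genes are therefore not the 28 whose signal was tested, and they include FADS2, which was not tested. The motifs searched on both strands were CACNCCAC, letters found in the classic sterol regulatory element, CCAAT, and CACGTG, the E-box. The 250 upstream bases are shown for 3 genes whose signal was higher with CdCl at 12 h (HMGCS1, HSD17B7 and STARD4) and for INSIG1, whose window, like those of SC5D, held all of the motifs. Capitals mark matches, and a match on the opposite strand of the gene reads as its reverse complement, ATTGG for CCAAT.
HMGCS1 (chr5:43313413-43313662, minus strand): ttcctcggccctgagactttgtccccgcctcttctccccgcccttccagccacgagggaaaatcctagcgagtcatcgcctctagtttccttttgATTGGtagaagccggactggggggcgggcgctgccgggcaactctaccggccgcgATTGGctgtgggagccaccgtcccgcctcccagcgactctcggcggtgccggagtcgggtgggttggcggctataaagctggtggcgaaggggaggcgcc
HSD17B7 (chr1:162790452-162790701, plus strand): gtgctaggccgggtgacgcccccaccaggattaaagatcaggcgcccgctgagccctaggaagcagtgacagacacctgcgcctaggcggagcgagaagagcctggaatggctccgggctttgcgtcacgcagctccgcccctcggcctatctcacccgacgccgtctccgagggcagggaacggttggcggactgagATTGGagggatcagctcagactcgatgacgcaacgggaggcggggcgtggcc
STARD4 (chr5:111512536-111512785, minus strand): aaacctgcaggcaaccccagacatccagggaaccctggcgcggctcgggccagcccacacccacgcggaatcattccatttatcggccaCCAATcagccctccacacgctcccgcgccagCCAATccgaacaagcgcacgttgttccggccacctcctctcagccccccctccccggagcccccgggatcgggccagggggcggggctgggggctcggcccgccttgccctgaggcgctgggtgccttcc
INSIG1 (chr7:155297628-155297877, plus strand): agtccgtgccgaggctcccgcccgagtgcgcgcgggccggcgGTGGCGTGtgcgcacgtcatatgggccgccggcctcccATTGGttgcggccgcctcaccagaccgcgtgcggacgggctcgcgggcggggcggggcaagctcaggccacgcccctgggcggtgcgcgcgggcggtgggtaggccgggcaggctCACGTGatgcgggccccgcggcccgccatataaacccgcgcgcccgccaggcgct
In INSIG1 the CACNCCAC match lies 208 bases, the CCAAT match 170 bases and the E-box 55 bases before the gene's start. HMGCS1 holds a pair of CCAAT boxes here, both antisense, and STARD4 a pair, both sense, and neither holds the other motifs in this window. HSD17B7 holds an antisense CCAAT box 52 bases before its start and another just after it, outside the stretch shown. Over all windows of the 28 genes that had one, CCAAT stood in 24 of 38 (63.2%), from 20 genes, compared with 34.6% of the 35116 windows listed for all genes. CACNCCAC stood in 7 of 38 (18.4%), from 6 genes, compared with 5.87% of all windows, and CACGTG in 5 of 38 (13.2%), from 4 genes, compared with 7.26%. A sense and an antisense CCAAT share letters in IDI1 and in NSDHL, and no other matches in these windows overlap. These are matches of letters, not measured binding.

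The arrays were close to one another, with correlations over all probe sets of 0.9965 to 0.9982 between replicates and 0.973 to 0.989 between arrays of different groups. Of 13 markers of proximal tubule epithelium with a probe set, PAX8, KRT8, KRT18, CDH1 and CDH2 exceeded 4 on all arrays, whereas 7 others (PAX2, GGT1, ANPEP, CUBN, LRP2, SLC34A1 and AQP1) did so on none and MME on 4 arrays. The fibroblast genes COL1A1, DCN and LUM exceeded 4 on all arrays and COL1A2 and PDGFRB on none, as did none of the markers of endothelium (4 genes), leukocytes (3), fat cells (3) and liver (3). LUM had group means of 9.44 in control cells and 8.97 with CdCl at 12 h, and of 8.21 in control cells and 7.32 with CdCl at 48 h, and its part in the results below was not tested. In bulk RNA, fewer cells carrying a transcript and less of it in each cell cannot be told apart.

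Among the 28 genes, lower calls with CdCl outnumbered higher ones at both times, under each scaling tried. At 12 h this held among all genes too, under each scaling (4246 lower and 1783 higher as deposited). At 48 h it held among all genes as deposited (2995 lower and 2835 higher) and after quantile normalization (2986 and 2870). It did not after each array was centred on its median (2839 lower and 2986 higher). With that centring, 8 of the 28 genes were lower at 12 h, beside 2830 of all 10683 genes, a similar share. On the probe sets chosen, the genes that rose at 12 h (HMGCS1, MSMO1, HSD17B7, INSIG2 and STARD4) all belong to sterol synthesis and its regulators. MSMO1 was not called after quantile normalization. SCD, a fatty acid gene, was higher at 12 h on 211708_s_at (1.26) and 211162_x_at (1.20). SQLE was not called at 12 h on its other probe sets. At 12 h 5 of the 28 genes were higher with CdCl and 15 lower, where 16.7% of all genes tested were higher and 39.7% lower. At 48 h 3 genes were higher and 16 lower, where 26.5% of all genes were higher and 28% lower. The median log2 change of the 28 genes was -0.24 at 12 h, compared with -0.16 over all genes, and -0.30 at 48 h, compared with -0.02 over all genes. Lower calls at both times were made for 11 genes (ACAT2, FDPS, SQLE, LSS, TM7SF2, EBP, SREBF1, ACLY, FASN, SCD and ELOVL6), and INSIG2 alone was higher at both, where 19% and 11.4% of all genes were. After centring, 5 genes were lower at both times (SQLE, TM7SF2, SREBF1, FASN and ELOVL6), compared with 14.1% of all genes. After quantile normalization the 11 genes were again lower at both, compared with 16.2% of all genes. At 12 h 3 genes exceeded 2-fold, all of them higher (STARD4, INSIG2 and HSD17B7). ELOVL6 alone did so at 48 h, where it was lower. The share of all genes beyond 2-fold was not counted.

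The 3 CdCl arrays lay all below the 3 control arrays for 18 of the 28 genes at 12 h, where 46.6% of all genes did, and for 19 at 48 h, where 30.9% did. They lay all above for 5 genes at 12 h and 4 at 48 h, compared with 19.8% and 29.1% of all genes. The count of lower genes at 12 h depended on the scaling of the arrays, since the all-gene median at that time moved from -0.16 to -0.01 when each array was centred on its median. After centring, 8 of the 28 genes were lower at 12 h and 5 higher, beside 2830 and 2607 of all 10683 genes. Lower genes then made up 52.1% of all calls in place of 70.4%. Lower calls for ACAT2, FDPS, EBP, SREBF2, ACLY, ACACA and SCD were lost by centring, their changes relative to the all-gene median being -0.17 to -0.04. At 48 h centring left 15 of the 16 lower calls.

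**Figure D1:**
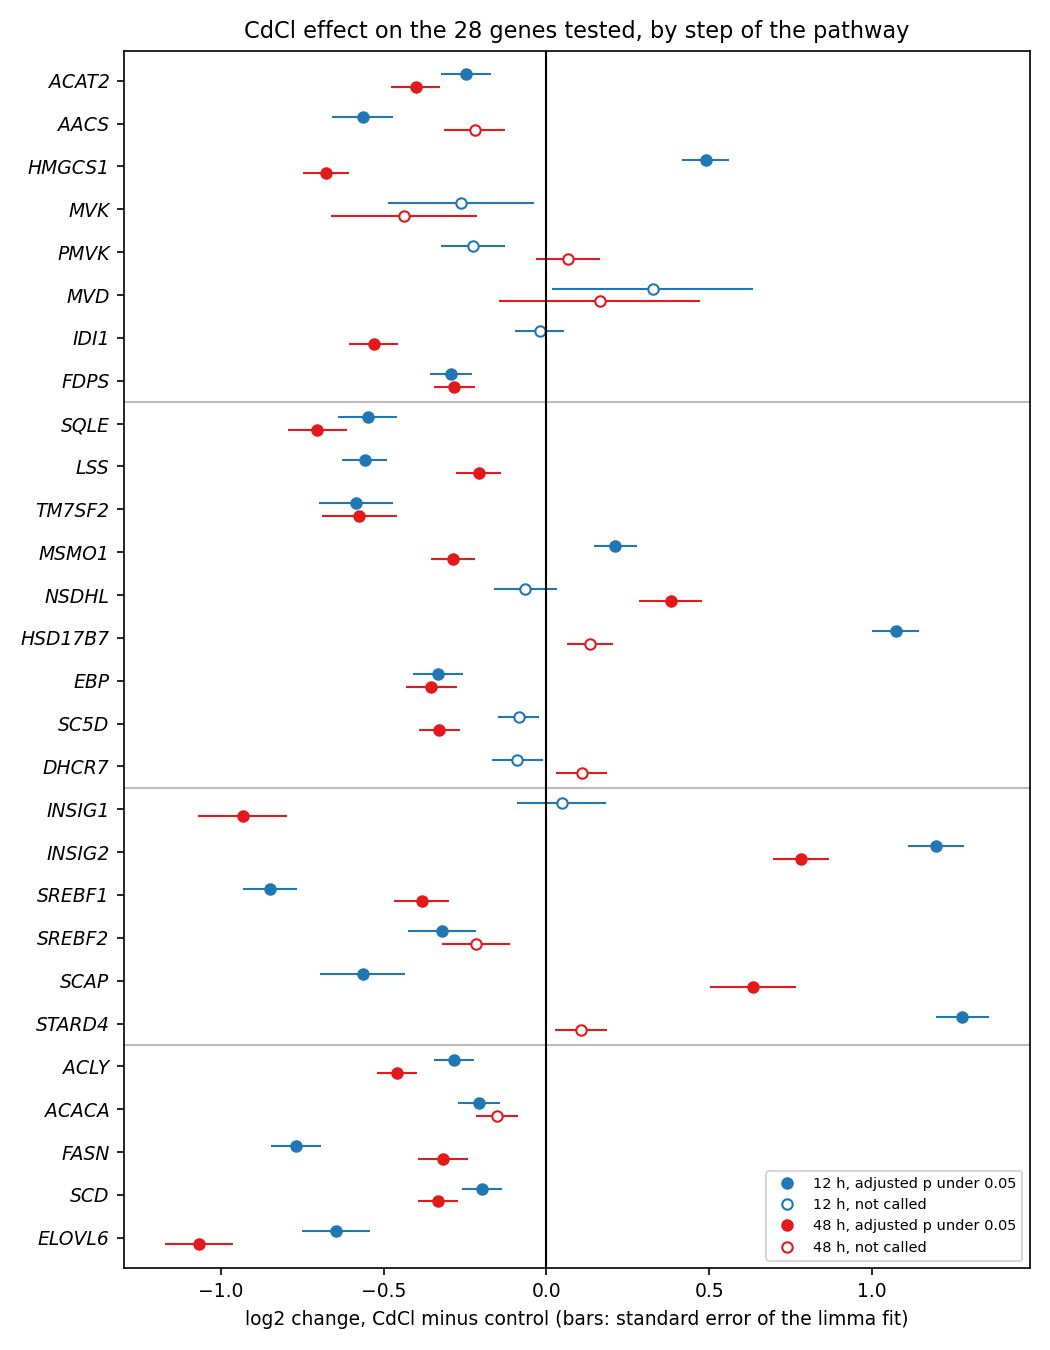
Log2 change with CdCl (x axis, CdCl minus control) for each of the 28 genes tested (y axis), ordered by step of the pathway and separated by lines into mevalonate and isoprenoid steps, squalene and sterol ring steps, regulators and sterol transport, and fatty acid synthesis. Points at 12 h (blue) and 48 h (red) carry standard errors and are filled where the adjusted p is under 0.05; STARD4, INSIG2 and HSD17B7 stand at the right at 12 h (1.28, 1.20 and 1.07), and ELOVL6 and INSIG1 at the left at 48 h (-1.07 and -0.93).

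Among the 8 genes of the mevalonate and isoprenoid steps, 1 was higher and 3 lower at 12 h (1 and 1 after centring), and 4 were lower and none higher at 48 h. The shares of all genes were 16.7% higher and 39.7% lower at 12 h, and 26.5% and 28% at 48 h. HMGCS1, the cytosolic HMG-CoA synthase that makes the precursor of mevalonate, changed direction between the times. Its signal was 10.45, 10.57 and 10.65 on the control arrays at 12 h and 11.01, 11.11 and 11.03 with CdCl. At 48 h it was 9.79, 9.78 and 9.71 in control cells and 9.11, 9.00 and 9.15 with CdCl. All CdCl arrays thus lay above the controls at 12 h and below them at 48 h. The change was 0.49 ± 0.07 (log2 ± SE, n = 3 arrays a group, adjusted p = 0.000142) at 12 h and -0.68 ± 0.07 (adjusted p = 1.05e-05) at 48 h, and the difference between these effects was -1.17 ± 0.10 (adjusted p = 1.5e-05). A further HMGCS1 probe set gave a larger rise at 12 h, described with the other probe sets below.

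ACAT2, the cytosolic thiolase that makes acetoacetyl-CoA, was lower with CdCl at both times. Control arrays at 12 h gave 11.24, 11.12 and 11.13 and CdCl arrays 10.96, 10.78 and 11.00. At 48 h the control arrays gave 9.98, 10.04 and 9.97 and the CdCl arrays 9.63, 9.50 and 9.66. The groups did not overlap at either time, with a change of -0.25 ± 0.08 (adjusted p = 0.0152) at 12 h and -0.40 ± 0.08 (adjusted p = 0.00082) at 48 h. The 12 h call was lost when either CdCl replicate 2 or control replicate 1 of that time was left out (adjusted p = 0.0577 to 0.0692).

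AACS, which activates acetoacetate for the same pathway, was lower at 12 h by -0.56 ± 0.09 (adjusted p = 0.000333) and gave -0.22 ± 0.09 at 48 h (adjusted p = 0.0649), which passed without control 12 h replicate 2 (adjusted p = 0.0323). FDPS, the farnesyl diphosphate synthase at the end of the isoprenoid steps, was lower by nearly equal amounts, -0.29 ± 0.06 (adjusted p = 0.0023) at 12 h and -0.28 ± 0.06 (adjusted p = 0.0029) at 48 h. IDI1, the isomerase before it, gave -0.02 ± 0.08 at 12 h (adjusted p = 0.837) and fell at 48 h by -0.53 ± 0.08 (adjusted p = 0.000101). The 48 h call of IDI1 was lost with the mean of its probe sets (-0.08, adjusted p = 0.529), the weakest of those tested giving 0.45, not called.

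The 3 enzymes that convert mevalonate passed the threshold at neither time. Mevalonate kinase, MVK, gave 6.14, 6.18 and 5.90 in control cells and 6.16, 6.08 and 5.20 with CdCl at 12 h. After 48 h it gave 6.74, 6.68 and 6.57 in control cells and 5.89, 6.47 and 6.32 with CdCl, all CdCl arrays lying below the controls. The 95% confidence interval of the MVK change ran from -0.93 to 0.05 at 48 h (adjusted p = 0.119), and without CdCl 12 h replicate 3, the array at 5.20, the 48 h change was called (-0.44, adjusted p = 0.0191). For PMVK, phosphomevalonate kinase, the interval ran from -0.44 to -0.01 at 12 h (adjusted p = 0.0686) and from -0.15 to 0.28 at 48 h, and without control 48 h replicate 1 the 12 h change passed (adjusted p = 0.0358). For MVD, the decarboxylase, it ran from -0.35 to 1.00 at 12 h and from -0.51 to 0.84 at 48 h, control replicate 2 at 12 h (3.68) lying apart from its neighbours (5.00 and 4.97).

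Of the 9 genes of the squalene and sterol ring steps, 2 were higher and 4 lower at 12 h (2 and 3 after centring). At 48 h 1 was higher and 6 lower (1 and 5 after centring). Of all genes, 16.7% were higher and 39.7% lower at 12 h, and 26.5% and 28% at 48 h. SQLE, the squalene epoxidase that commits squalene to sterols, was lower at both times on its strongest probe set, though the mean of its probe sets gave 0.01 at 12 h (adjusted p = 0.915). At 12 h it gave 11.86, 12.04 and 12.17 in control cells and 11.51, 11.53 and 11.39 with CdCl. The 48 h values were 11.28, 11.34 and 11.48 in control cells and 10.68, 10.74 and 10.58 with CdCl. The groups did not overlap at either time. The SQLE change was -0.55 ± 0.09 (adjusted p = 0.000338) at 12 h and -0.70 ± 0.09 (adjusted p = 4.92e-05) at 48 h, and the difference between the times was -0.16 with a 95% interval from -0.44 to 0.13.

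TM7SF2, a sterol reductase of the ring steps, fell by nearly the same amount at both times. At 12 h it gave 7.48, 7.40 and 7.30 in control cells and 6.75, 6.96 and 6.71 with CdCl. At 48 h it gave 7.89, 7.90 and 8.14 in control cells and 7.43, 7.60 and 7.19 with CdCl. The lowest control array thus stood above the highest CdCl array at each time, with a change of -0.59 ± 0.12 (adjusted p = 0.00111) at 12 h and -0.57 ± 0.12 (adjusted p = 0.00125) at 48 h.

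EBP, the sterol isomerase, was lower at both times too. In control cells at 12 h it gave 11.25, 11.32 and 11.44, and with CdCl 11.00, 10.95 and 11.06. In control cells at 48 h it gave 10.16, 10.10 and 10.31, and with CdCl 9.78, 9.84 and 9.90. All CdCl arrays lay below the controls of their time, by -0.33 ± 0.08 (adjusted p = 0.00327) at 12 h and -0.35 ± 0.08 (adjusted p = 0.00228) at 48 h. LSS, the lanosterol synthase that closes the ring, fell by -0.56 ± 0.07 (adjusted p = 4.13e-05) at 12 h and by -0.21 ± 0.07 (adjusted p = 0.024) at 48 h. The 48 h call of LSS was lost when CdCl replicate 2 or 3 or control replicate 1 or 2 of that time was left out (adjusted p = 0.051 to 0.0957) and after centring (adjusted p = 0.055), and with the mean of its probe sets LSS gave -0.25 at 12 h (adjusted p = 0.0369) and -0.04 at 48 h (adjusted p = 0.744).

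HSD17B7, which reduces the sterol ketone formed when methyl groups are removed, went the other way at 12 h. It gave 9.33, 9.29 and 9.35 in control cells and 10.32, 10.39 and 10.47 with CdCl, a rise of 1.07 ± 0.07 (2.10-fold, adjusted p = 3.38e-07). After 48 h it gave 9.90, 9.91 and 9.85 in control cells and 9.94, 9.97 and 10.15 with CdCl, with a 95% interval of the change from -0.02 to 0.29 (adjusted p = 0.132). The controls at 12 h were the lowest of the 12 arrays. The gene has a single probe set here, of a type that can bind related transcripts, and a pseudogene of HSD17B7 is listed in RefSeq.

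NSDHL, the dehydrogenase of the same demethylation, was higher at 48 h. Its 12 h values were 9.03, 8.97 and 9.02 in control cells and 8.94 on each CdCl array. The 48 h values were 8.62, 8.78 and 8.98 in control cells and 9.13, 9.35 and 9.04 with CdCl, a change of 0.38 ± 0.10 (adjusted p = 0.00554), with no overlap. MSMO1, the oxidase that removes those methyl groups, was higher at 12 h by 0.21 ± 0.07 (adjusted p = 0.0182) and lower at 48 h by -0.29 ± 0.07 (adjusted p = 0.00355). The 12 h call of MSMO1 was lost when CdCl replicate 2 or 3 or control replicate 3 of that time was left out (adjusted p = 0.0531 to 0.0614) and after quantile normalization (adjusted p = 0.0767), and after centring the change was 0.36.

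The last enzymes of the ring changed little at 12 h. SC5D, the sterol desaturase, gave -0.08 ± 0.06 (adjusted p = 0.274) at 12 h and fell by -0.33 ± 0.06 (adjusted p = 0.000926) at 48 h, a call lost with the mean of its probe sets (-0.12, adjusted p = 0.103). DHCR7, which reduces a double bond of the ring to give cholesterol, passed at neither time, with 95% intervals from -0.26 to 0.08 at 12 h and from -0.06 to 0.28 at 48 h.

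Among the 6 regulators and transport genes, 2 were higher and 3 lower at 12 h (2 and 2 after centring), and 2 were higher and 2 lower at 48 h. Over all genes, 16.7% were higher and 39.7% lower at 12 h, and 26.5% and 28% at 48 h. The INSIG genes went different ways. INSIG2 was 8.23, 8.06 and 7.96 in control cells at 12 h and 9.27, 9.26 and 9.31 with CdCl. By 48 h it was 8.77, 8.73 and 8.99 in control cells and 9.56, 9.61 and 9.66 with CdCl. Every CdCl array stood above the controls of its time. INSIG2 rose by 1.20 ± 0.09 (2.29-fold, adjusted p = 6.7e-07) at 12 h and by 0.78 ± 0.09 (1.72-fold, adjusted p = 1.39e-05) at 48 h, and the effect was smaller at 48 h by -0.41 ± 0.12 (adjusted p = 0.019).

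INSIG1, the partner that SREBP itself induces, was 11.94, 11.98 and 11.85 in control cells at 12 h and 11.99, 11.96 and 11.96 with CdCl. The 48 h values were 11.19, 11.44 and 10.99 in control cells and 10.53, 9.96 and 10.33 with CdCl. The groups overlapped at 12 h and were apart at 48 h. The change at 12 h was 0.05 with a 95% interval from -0.25 to 0.35, and at 48 h INSIG1 fell by -0.93 ± 0.14 (1.91-fold, adjusted p = 0.000131).

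SREBF1, the gene of the factor that chiefly drives fatty acid synthesis, was 7.54, 7.43 and 7.46 in control cells at 12 h and 6.56, 6.68 and 6.63 with CdCl. At 48 h it was 6.57, 6.71 and 6.49 in control cells and 6.22, 6.33 and 6.07 with CdCl. CdCl arrays were below the controls of their time throughout. SREBF1 fell by -0.85 ± 0.08 (1.80-fold, adjusted p = 7.02e-06) at 12 h and by -0.38 ± 0.08 (1.30-fold, adjusted p = 0.00217) at 48 h.

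SREBF2, whose product chiefly drives sterol synthesis, was 7.54, 7.77 and 7.88 in control cells at 12 h and 7.38, 7.50 and 7.35 with CdCl. After 48 h it was 7.43, 7.26 and 7.49 in control cells and 7.17, 7.33 and 7.03 with CdCl, and the groups overlapped. The 12 h change of -0.32 ± 0.11 (adjusted p = 0.0217) was not called after centring or quantile normalization (adjusted p = 0.231 and 0.287), nor when CdCl replicate 1 or 3 or control replicate 2 or 3 of that time was left out (adjusted p = 0.0589 to 0.0883). At 48 h the change was -0.22 ± 0.11 (adjusted p = 0.105), and it passed without CdCl 48 h replicate 2 (-0.29, adjusted p = 0.0462).

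SCAP, the escort of SREBP, had its lowest arrays with CdCl at 12 h and its highest with CdCl at 48 h. It was 7.17, 6.78 and 6.80 in control cells at 12 h and 6.12, 6.60 and 6.34 with CdCl. By 48 h it was 6.75, 6.85 and 6.88 in control cells and 7.56, 7.50 and 7.32 with CdCl. SCAP fell by -0.56 ± 0.13 (adjusted p = 0.00329) at 12 h, or by -0.34 after quantile normalization (adjusted p = 0.038), and rose by 0.63 ± 0.13 (adjusted p = 0.0016) at 48 h, and the effects differed by 1.20 ± 0.19 (adjusted p = 0.000508).

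STARD4 was 9.15, 9.26 and 9.14 in control cells at 12 h and 10.39, 10.46 and 10.55 with CdCl. At 48 h it was 10.19, 10.41 and 10.13 in control cells and 10.36, 10.33 and 10.36 with CdCl. The control arrays at 12 h stood below all the others, and the groups overlapped at 48 h. STARD4 rose by 1.28 ± 0.08 (2.42-fold, adjusted p = 2.29e-07) at 12 h, and the 95% interval of the 48 h change ran from -0.07 to 0.28 (adjusted p = 0.292).

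**Figure D2:**
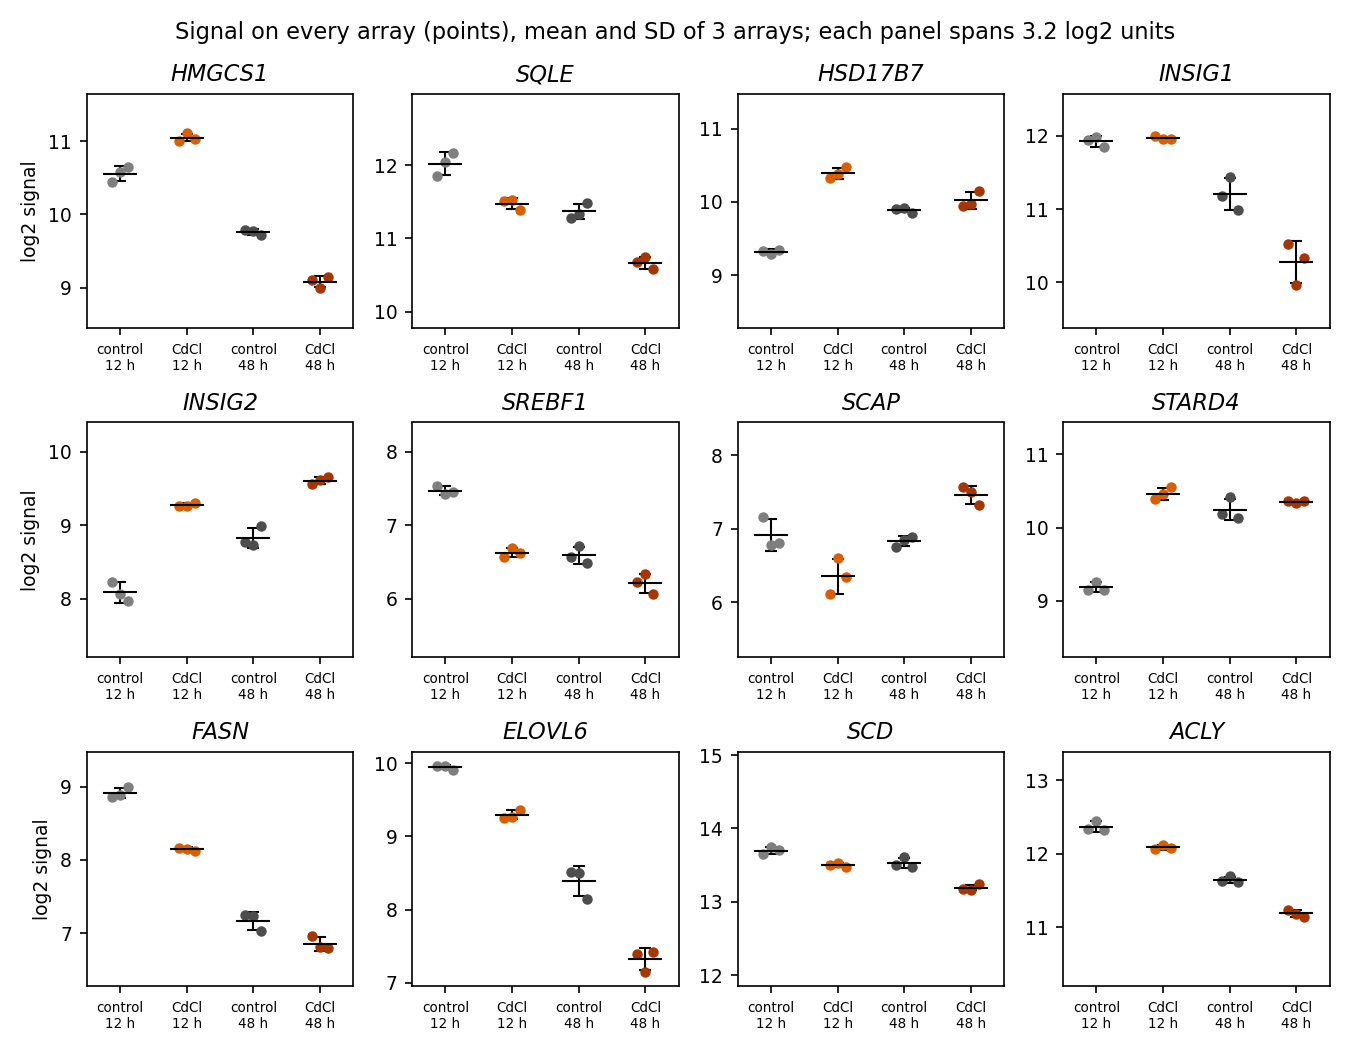
Log2 signal on every array (points) for 12 of the genes, with the mean and SD of the 3 arrays of each group (bars), on axes that all span 3.2 log2 units and start at different levels. FASN, ELOVL6, ACLY and SQLE step down from control 12 h to CdCl 48 h, whereas HSD17B7 and STARD4 are low only on the control 12 h arrays, and SCAP is lowest with CdCl at 12 h and highest with CdCl at 48 h.

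On their strongest probe sets, the 5 genes of fatty acid synthesis tested were all lower at 12 h and 4 of them at 48 h. Of all genes, 39.7% were lower at 12 h and 28% at 48 h. At 12 h the lower calls of ACLY, ACACA and SCD were lost after centring, that of ACACA also after quantile normalization (adjusted p = 0.196), and SCD was higher on 2 of its other probe sets (1.26 and 1.20) and on the mean of its probe sets (0.56, adjusted p = 0.000172). ELOVL6, which elongates palmitate, showed the largest fall of the 28 genes at 48 h. It was 9.95, 9.96 and 9.91 in control cells at 12 h and 9.25, 9.27 and 9.36 with CdCl. The 48 h values were 8.51, 8.51 and 8.15 in control cells and 7.40, 7.15 and 7.42 with CdCl. No CdCl array reached a control array of its time. The change was -0.65 ± 0.10 (1.56-fold, adjusted p = 0.000279) at 12 h and -1.07 ± 0.10 (2.09-fold, adjusted p = 5.29e-06) at 48 h.

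FASN, the fatty acid synthase, was 8.86, 8.89 and 8.99 in control cells at 12 h and 8.17, 8.15 and 8.12 with CdCl. By 48 h it was 7.24, 7.24 and 7.03 in control cells and 6.96, 6.81 and 6.80 with CdCl. All CdCl arrays were below their controls. FASN fell by -0.77 ± 0.08 (1.70-fold, adjusted p = 7.96e-06) at 12 h and by -0.32 ± 0.08 (1.25-fold, adjusted p = 0.00436) at 48 h.

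ACLY, the ATP citrate lyase, fell by -0.28 ± 0.06 (adjusted p = 0.00214) at 12 h and -0.46 ± 0.06 (adjusted p = 6.42e-05) at 48 h. ACACA, the acetyl-CoA carboxylase that commits acetyl-CoA to fatty acids, gave -0.21 ± 0.06 (adjusted p = 0.0168) at 12 h and -0.15 ± 0.06 (adjusted p = 0.0637) at 48 h. The 12 h call was lost when CdCl replicate 3 or control replicate 2 of that time was left out (adjusted p = 0.0557 to 0.0647), and the 48 h change passed without CdCl 48 h replicate 2 (adjusted p = 0.0365). SCD, the desaturase that makes oleate, gave -0.20 ± 0.06 (adjusted p = 0.0166) at 12 h on its strongest probe set, a call lost without the same arrays (adjusted p = 0.0513 to 0.0595), and -0.33 ± 0.06 (adjusted p = 0.000693) at 48 h. The 48 h call was lost with the mean of the SCD probe sets (-0.12, adjusted p = 0.239).

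The CdCl effect at 48 h minus that at 12 h was tested gene by gene. It was higher for 5 of the 28 genes and lower for 9, where 27% of all genes were higher and 13% lower (40.1% in either direction), and its median was -0.15, compared with 0.13 over all genes. The lower group held STARD4 (-1.17 ± 0.11, adjusted p = 2.8e-05), HMGCS1, INSIG1 (-0.98 ± 0.19, adjusted p = 0.00219) and HSD17B7 (-0.94 ± 0.10, adjusted p = 5.1e-05). IDI1 (-0.51), MSMO1 (-0.50), INSIG2 (-0.41), ELOVL6 (-0.42) and SC5D (-0.24) were also lower. The higher group held SCAP, SREBF1 (0.47 ± 0.12, adjusted p = 0.00897), FASN (0.45 ± 0.11, adjusted p = 0.00668), NSDHL (0.45 ± 0.14, adjusted p = 0.0223) and LSS (0.35 ± 0.10, adjusted p = 0.0148). For SREBF1, FASN and LSS, this means that the fall was smaller at 48 h than at 12 h.

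Centring the arrays moved the all-gene median of this difference from 0.13 to 0.00 and the split of the 28 genes to 3 higher and 11 lower, and quantile normalization moved it to 2 and 9. Lower genes made up 32.6% of all calls as deposited, 51.1% after centring and 46.7% after quantile normalization. Relative to the all-gene median, STARD4 stood at -1.30, HMGCS1 at -1.29, INSIG1 at -1.11 and HSD17B7 at -1.07, and SCAP at 1.07. The calls of SC5D and ELOVL6 were close to the threshold (adjusted p = 0.0475 and 0.0403). That of SC5D was lost on leaving out any array but CdCl 48 h replicate 3 (adjusted p = 0.0533 to 0.101), that of ELOVL6 on leaving out any but CdCl 48 h replicates 1 and 3 and control 48 h replicate 3 (adjusted p = 0.058 to 0.0954), and that of NSDHL without control 48 h replicate 1 (adjusted p = 0.0533). Centring took the SC5D difference to -0.37. The calls of LSS and NSDHL were lost under both scalings, and that of SREBF1 after quantile normalization. With the mean of a gene's probe sets, IDI1 gave 0.12 (adjusted p = 0.502), LSS 0.21 (adjusted p = 0.216) and SC5D -0.21 (adjusted p = 0.0698), and SQLE and SCD were called lower (-0.79 and -0.68).

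In control cells, 6 of the 28 genes were higher at 48 h than at 12 h and 15 lower, where 23.4% of all genes were higher and 33.5% lower. This comparison shares the control arrays at 12 h with the CdCl effect at 12 h and those at 48 h with the CdCl effect at 48 h. Median change was -0.27, compared with -0.06 over all genes. FASN showed the largest fall, -1.75 ± 0.08 (3.35-fold, adjusted p = 8.35e-09), followed by ELOVL6 (-1.55 ± 0.10, adjusted p = 2.14e-07), ACAT2 (-1.16 ± 0.08, adjusted p = 1.66e-07) and EBP (-1.14 ± 0.08, adjusted p = 2.31e-07). All 5 fatty acid genes were lower, ACLY by -0.72, ACACA by -0.43 and SCD by -0.17, the last turning to 0.40 with the mean of its probe sets (adjusted p = 0.00166) and not called after centring or quantile normalization (adjusted p = 0.247 and 0.353) nor without control 12 h replicate 2 or 3 or control 48 h replicate 1 or 3 (adjusted p = 0.0716 to 0.104).

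SREBF1 fell by -0.88 ± 0.08 over the same time (adjusted p = 3.59e-06), HMGCS1 by -0.80, INSIG1 by -0.72, FDPS by -0.67, SQLE by -0.65, IDI1 by -0.44 and LSS by -0.32. On its other probe set HMGCS1 was called higher (0.48), and the mean of both gave -0.16 (adjusted p = 0.124). LSS gave 0.70 on its next probe set (adjusted p = 0.0708) and 0.10 with the mean (adjusted p = 0.38). The fall of SREBF2 (-0.34, adjusted p = 0.0164) was not called after centring or quantile normalization (adjusted p = 0.0696 and 0.0643), nor with the mean of its probe sets (adjusted p = 0.497), nor without control 12 h replicate 2 or 3 or control 48 h replicate 2. Against these, STARD4 rose in control cells by 1.06 ± 0.08 (2.08-fold, adjusted p = 6e-07), INSIG2 by 0.74 ± 0.09 (adjusted p = 1.84e-05), TM7SF2 by 0.59 ± 0.12 (adjusted p = 0.000974), HSD17B7 by 0.57 ± 0.07 (adjusted p = 3.38e-05) and PMVK by 0.34 ± 0.10 (adjusted p = 0.0105). MVK rose by 0.59 ± 0.22 (adjusted p = 0.0409), which was lost without each of the 6 control arrays in turn or CdCl 48 h replicate 3 (adjusted p = 0.0502 to 0.124), and with the mean of its probe sets (0.13, adjusted p = 0.123). The split changed to 8 higher and 13 lower after either centring or quantile normalization, lower genes making up 49.3% of all calls under each in place of 58.8%, and MVD and DHCR7 were then called higher. As deposited, these missed the threshold (0.72 ± 0.31 and 0.19 ± 0.08, adjusted p = 0.0659 and 0.0576), MVD passing without control 12 h replicate 1 or 3 and DHCR7 without CdCl 48 h replicate 3 or control 12 h replicate 1. NSDHL gave -0.21 ± 0.10 (adjusted p = 0.08) and passed without CdCl 48 h replicate 2 or control 48 h replicate 3. AACS, MSMO1, SC5D and SCAP were not called either, with changes of -0.18, 0.02, -0.09 and -0.09.

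**Figure D3:**
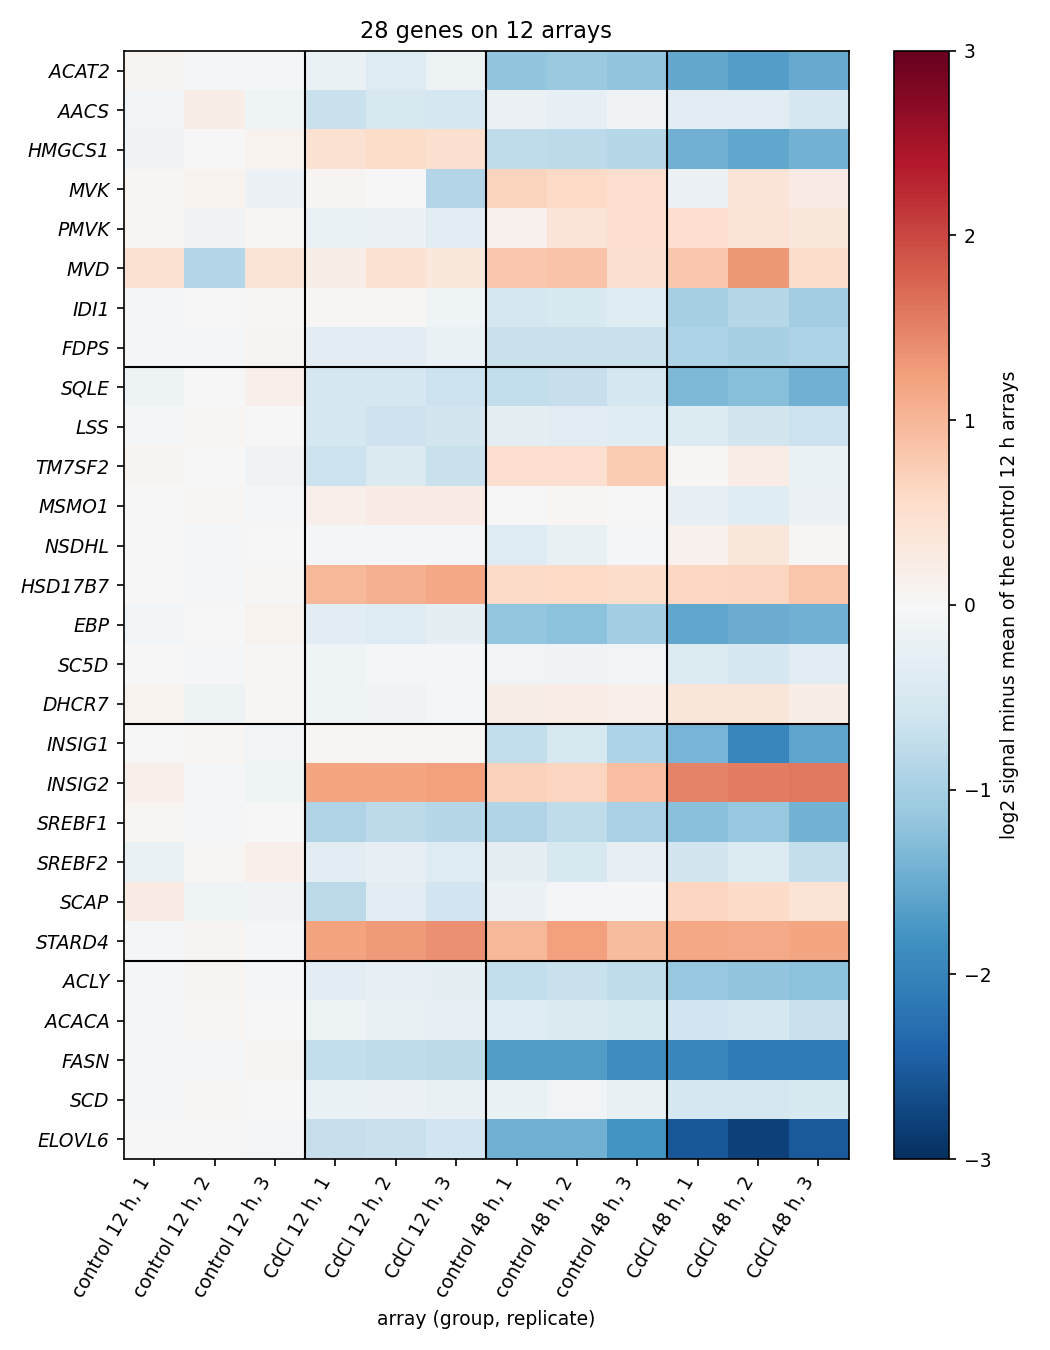
Log2 signal of the 28 genes (rows) on the 12 arrays (columns, by group and replicate) minus the mean of the control 12 h arrays of that gene, red for higher and blue for lower. FASN and ELOVL6 darken from left to right in blue, INSIG2, STARD4 and HSD17B7 are red in all groups but control 12 h, and TM7SF2 is blue with CdCl at 12 h and red in control cells at 48 h.

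Several genes were read by more than 1 probe set, and these did not always give the same change. Of the 14 genes with at least 2 probe sets above the floor, the sign of the change differed between probe sets for 3 genes at 12 h and 6 at 48 h. Values in this paragraph and the next come from a fit over probe sets in place of genes. The other HMGCS1 probe set, 205822_s_at, gave 9.07, 8.39 and 8.66 in control cells at 12 h and 10.83, 10.88 and 10.89 with CdCl, a rise of 2.16 ± 0.18 (4.45-fold, adjusted p = 2.86e-06). After 48 h it gave 9.07, 9.18 and 9.31 in control cells and 8.42, 9.04 and 8.92 with CdCl, a change of -0.39 ± 0.18 (adjusted p = 0.0884). Both HMGCS1 probe sets therefore rose at 12 h, by different amounts, whereas in control cells over time this probe set rose by 0.48 (adjusted p = 0.0406) and the strongest one fell.

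The SCD probe sets went opposite ways at 12 h. Probe set 211708_s_at gave 8.85, 8.37 and 8.32 in control cells and 9.84, 9.66 and 9.82 with CdCl, and 211162_x_at gave 8.81, 8.21 and 8.00 in control cells and 9.51, 9.53 and 9.59 with CdCl. These rose by 1.26 ± 0.13 (adjusted p = 1.76e-05) and 1.20 ± 0.18 (adjusted p = 0.000188), whereas 200831_s_at gave -0.03 ± 0.10 and the strongest probe set was lower. For SQLE the 3 other probe sets gave -0.04 ± 0.09, 0.22 ± 0.11 and 0.42 ± 0.35 at 12 h, and none of them was called. At 48 h all 4 SQLE probe sets were lower, by -0.70 ± 0.09, -0.69 ± 0.09, -0.58 ± 0.11 and -1.14 ± 0.35. The CdCl effect at 48 h minus that at 12 h was -0.65, -0.80 and -1.56 on the 3 others, each called, and was not called on the strongest one.

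In the CdCl comparisons at 12 h and 48 h, the other genes with more than 1 called probe set had these in the same direction. EBP was lower at 48 h on all 3 of its probe sets and ACLY on all 3. ELOVL6 fell on its next probe set by -0.46 ± 0.12 at 12 h (adjusted p = 0.0063). INSIG1 fell at 48 h on its next probe set by -0.60 and gave 0.08, not called, on its weakest one. MVK was lower on 204056_s_at at 12 h (-0.29, adjusted p = 0.0365) and at 48 h (-0.57, adjusted p = 0.000742), where its strongest probe set was not called. The weaker DHCR7 probe set was lower at 12 h (-0.23, adjusted p = 0.0112), and the weakest of the 3 IDI1 probe sets tested was lower at 12 h (-0.74, adjusted p = 0.046) and, for the difference between times, higher (1.19) where the others were lower.

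The mean of all probe sets of a gene, dim ones included, gave a smaller change than the strongest probe set for several genes whose calls it kept. FASN gave -0.40 at 12 h and -0.16 at 48 h, SREBF1 -0.43 and -0.19, and EBP -0.16 and -0.23. INSIG1 gave -0.48 at 48 h. In control cells over time FASN gave -0.88, EBP -0.74, SREBF1 -0.44 and SQLE -0.39. For the difference between times INSIG1 gave -0.44, and SREBF1 and FASN each gave 0.24. For HMGCS1 the mean was larger, 1.32 at 12 h (adjusted p = 2.57e-07) and -1.86 for the difference. The 12 h call of SREBF2 was lost (adjusted p = 0.125), and those of MVK and DHCR7 were gained at 12 h (adjusted p = 0.0222 and 0.0262) and that of MVK at 48 h (adjusted p = 0.0025).

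Control probe sets on the arrays varied between the groups, with ranges that overlapped in part. The difference between the 3' and 5' probe sets of GAPDH was 0.02 to 0.20 on the control 12 h arrays and -0.05 to 0.06 on all the others. That of actin was 1.71 to 2.11 in control cells and 1.69 to 1.80 with CdCl at 12 h, and 1.36 to 1.57 and 1.40 to 1.82 in that order at 48 h. The poly-A spike-in signal was 6.39 to 6.63 in control cells and 6.96 to 7.04 with CdCl at 12 h, and 6.05 to 6.24 and 5.74 to 6.64 at 48 h, so that the CdCl 12 h arrays stood above all the others. Their part in these results was not tested.

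**Figure D4:**
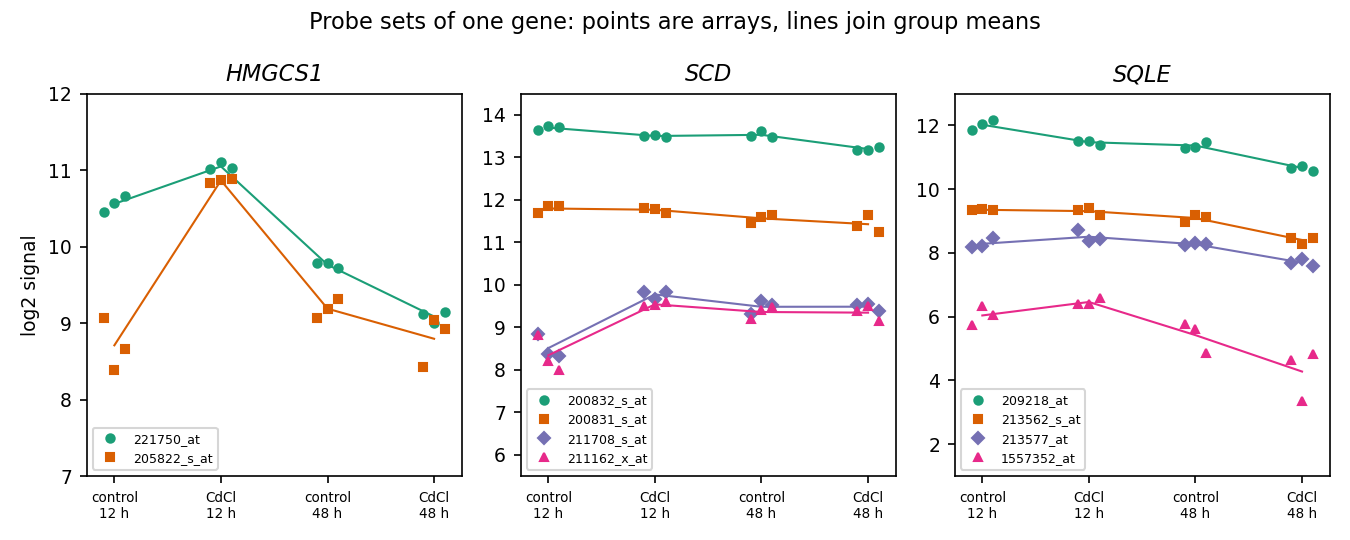
Log2 signal on every array (points) and group means (lines) for the probe sets of HMGCS1, SCD and SQLE that exceeded 4 on at least 3 arrays, by group. The HMGCS1 probe sets peak together with CdCl at 12 h, the 2 weaker SCD probe sets with low control 12 h arrays rise at 12 h where the strongest is lower by -0.20, and all 4 SQLE probe sets are lowest with CdCl at 48 h.

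Genes around these pathways were read from 6 further lists. In the list of SREBP processing and sterol sensing, 1 of the 10 genes tested was higher and 5 lower at 12 h, and 3 were higher and 6 lower at 48 h. PAQR3, a Golgi protein that anchors SCAP and SREBP there, rose by 1.50 ± 0.15 (adjusted p = 6.58e-06) at 12 h and 1.23 ± 0.15 (adjusted p = 2.54e-05) at 48 h. MBTPS1 and MBTPS2, the proteases that free SREBP, were among the lower genes at both times. ERLIN1, a cholesterol-binding protein of the endoplasmic reticulum, showed the largest fall at 12 h (-1.21 ± 0.07, adjusted p = 1.42e-07), and TMEM97, a sterol-responsive membrane protein, at 48 h (-1.29 ± 0.07, adjusted p = 6.74e-08).

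Of the 13 genes of sterol uptake and intracellular transport, 2 were higher and 3 lower at 12 h, and 6 were higher and 3 lower at 48 h. NPC1, which moves cholesterol out of lysosomes, rose by 0.86 ± 0.07 (adjusted p = 1.46e-06) and 0.89 ± 0.07 (adjusted p = 7.27e-07). The largest falls were those of GRAMD1A at 12 h (-0.77 ± 0.18, adjusted p = 0.00376) and GRAMD1C at 48 h (-1.62 ± 0.27, adjusted p = 0.000312), both carriers of plasma membrane cholesterol. In the list of efflux, LXR and esterification, 5 of the 12 genes were tested, and 2 were higher and 2 lower at each time. ABCA1, the cholesterol efflux pump, rose by 0.73 ± 0.09 (adjusted p = 4.64e-05) at 12 h and 0.71 ± 0.09 (adjusted p = 4.72e-05) at 48 h. NR1H3, the gene of LXR alpha, was lower at 12 h (-0.52 ± 0.12, adjusted p = 0.00365). LPCAT3, a phospholipid acyltransferase, was lower at 48 h (-0.47 ± 0.16, adjusted p = 0.0245), a call lost when CdCl replicate 3 or control replicate 2 or 3 of that time was left out.

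Fatty acid elongation, activation and lipid assembly had 25 genes tested, with 6 higher and 11 lower at 12 h and 5 higher and 10 lower at 48 h. PLIN2, the coat protein of lipid droplets, rose by 1.51 ± 0.08 (adjusted p = 6.82e-08) at 12 h, the largest rise of this list, and ACACB, the carboxylase isoform that restrains fatty acid oxidation, showed the largest fall (-0.72 ± 0.16, adjusted p = 0.00237). At 48 h the extremes were FADS3 (1.21 ± 0.13, adjusted p = 1.03e-05) and the desaturase SCD5 (-1.30 ± 0.08, adjusted p = 1.66e-07). Among 13 genes of isoprenoid branches, 2 were higher and 4 lower at 12 h, and 4 were higher and 1 lower at 48 h. ICMT, which methylates prenylated proteins, was lower at both times (-1.03 ± 0.07 and -0.31 ± 0.07), whereas the subunits of Rab geranylgeranyl transferase gave the largest rises, RABGGTB at 12 h (0.59 ± 0.10) and RABGGTA at 48 h (1.23 ± 0.11).

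In the list of AMPK and insulin inputs, 1 of 15 genes was higher and 6 lower at 12 h, and 4 were higher and 4 lower at 48 h. PRKAA2, a catalytic subunit of AMPK, rose by 0.82 ± 0.13 (adjusted p = 0.000302) at 12 h and AKT1 fell by -0.91 ± 0.13 (adjusted p = 9.13e-05). At 48 h PRKAB2 rose by 0.59 ± 0.12 (adjusted p = 0.00108), and PRKAA1, the other catalytic subunit, fell by -0.61 ± 0.20 (adjusted p = 0.024), a call lost when replicate 2 of either group of that time was left out. After centring, the list counts at 12 h were 1 higher and 4 lower for SREBP processing, 6 and 1 for uptake and transport, 6 and 7 for elongation and lipid assembly, 3 and 4 for isoprenoid branches and 2 and 5 for AMPK and insulin inputs. With the mean of a gene's probe sets, the calls named from these lists were kept at smaller sizes for NPC1 (0.30 and 0.41), GRAMD1A (-0.35), PLIN2 (0.75), SCD5 (-0.44), PRKAA2 (0.39), ICMT at 12 h (-0.64), and at 48 h PAQR3 (0.73), ABCA1 (0.45), LPCAT3 (-0.28) and PRKAA1 (-0.39). The counts as deposited stand beside the 16.7% higher and 39.7% lower of all genes at 12 h and the 26.5% and 28% at 48 h.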

How the data were processed

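Gene expression was measured in 12 samples of HK-2 cells, 1 Affymetrix array each. Each deposited value is the log2 signal of a probe set, which the authors made with GCRMA, which corrects background by probe sequence and normalises between arrays, per the submitters' processing notes, which name no version. Values were used as deposited. Symbols came from the platform annotation, and probe sets with several symbols or none were not used. The number of arrays limits the precision, and the signal over background limits weak genes. One fit of 4 group means (lmFit and eBayes of limma 3.58.1, R 4.3.3) gave 4 two-sided comparisons, with Benjamini-Hochberg adjustment over all 10683 genes that entered and a threshold of 0.05. The fit was tested on simulated data. With 3 arrays a group, the smallest p that exact permutation allows is 0.1. The 32 genes and the further lists were chosen with earlier results of these data known. Values on every array are given for the 4 called genes with the largest change in each direction in each comparison and for HMGCS1, SQLE, FASN, SREBF1, SREBF2, INSIG1, INSIG2 and STARD4; from each further list, the called genes with the largest rise and fall at each time are named. Array values of MVD and of other probe sets, MBTPS1 and MBTPS2 were chosen after they were seen. The labels do not say that replicate numbers pair samples, so a block by replicate number is only an alternative. Samples sharing a replicate number within a time did not deviate together (correlations -0.34 to -0.003), but so few pairs cannot show whether they were paired. The 19 alternatives covered filters, scaling, the probe set rule, the variance prior, a replicate block and leaving out each array; using the probe set with the next highest mean was added after seeing the data.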

Additional observations from a re-analysis of the deposited data

Results flagged for a closer look

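The CdCl effect differed between 48 h and 12 h, by the interaction term of the limma fit, for 14 of the 28 genes, compared with 40.1% of all genes. The calls of LSS, NSDHL, SREBF1, SC5D, IDI1 and ELOVL6 are lost under at least 1 of the alternatives. The difference (48 h minus 12 h, log2) was -1.17 for HMGCS1, which rose at 12 h and fell at 48 h, and -0.50 for MSMO1, which did the same. It was -1.17 for STARD4 and -0.94 for HSD17B7, called higher at 12 h alone, and -0.41 for INSIG2, higher at both times. For INSIG1 it was -0.98, for IDI1 -0.51 and for SC5D -0.24, all lower at 48 h alone, and for ELOVL6, lower at both times, it was -0.42. The difference was positive for SCAP at 1.20, lower at 12 h and higher at 48 h, and for NSDHL at 0.45, higher at 48 h alone. It was 0.47 for SREBF1, 0.45 for FASN and 0.35 for LSS, which were lower at both times.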

How the results depend on the processing

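Arrays centred on their median gave 8 lower genes at 12 h in place of 15 (2830 in place of 4246 among all genes). They gave 3 genes in place of 5 with a higher effect at 48 h than at 12 h (1907 in place of 2888 among all genes). Quantile normalization gave 2 in place of 5 (2063 in place of 2888 among all genes). Centring or quantile normalization takes part of the all-gene shift out of each comparison. The calls of LSS and NSDHL for the difference between times were lost under centring (adjusted p = 0.119 and 0.114) and quantile normalization (0.0516 and 0.0679), and that of SREBF1 under quantile normalization alone (0.0587). Leaving out 1 array at a time gave 4 to 5 higher and 12 to 16 lower genes at 12 h, 3 higher and 15 to 17 lower at 48 h, 4 to 6 higher and 7 to 9 lower for the difference, and 5 to 7 higher and 13 to 16 lower for control cells over time. Changes called in neither fit turned direction in 23 cases on leaving out an array, 8 after centring and 5 after quantile normalization, and some with another choice of probe set. Among changes called as deposited or under the alternative, directions turned in 10 cases, all with another choice of probe set. DHCR7 alone among these 10 was not called as deposited, and the cause was not tested. With the mean of all probe sets of a gene, SQLE gave 0.013 and SCD 0.56 at 12 h, IDI1 0.12 for the difference, and LSS 0.10 and SCD 0.40 in control cells over time. With the probe set of the next highest mean, an alternative chosen after seeing the data, LSS gave 0.086 at 48 h, and in control cells over time HMGCS1 gave 0.48, MVK -0.038, LSS 0.70 and DHCR7 -0.24. Without the filter on low values, the calls of ELOVL6 for the difference (adjusted p = 0.0765), MVK in control cells (0.114), LPCAT3 and PRKAA1 at 48 h were lost.

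With the replicate number as a block, the counts were 5 higher and 15 lower at 12 h, 3 and 16 at 48 h, 5 and 7 for the difference and 6 and 14 in control cells over time. The calls lost were SC5D (adjusted p = 0.0651) and ELOVL6 (0.0626) for the difference and SCD in control cells (0.0513), and the block changed no other call among the 28 genes. Of the 3 same-numbered pairs at each time, 0 had a correlation of deviations over 0.1. So few pairs cannot show whether samples with the same number shared a culture or a day.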
